A study of Caenorhabditis elegans with 10 samples.

Results

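The intestinal binding sites of HPL-1 and HPL-2, paralogues of heterochromatin protein 1 in the nematode Caenorhabditis elegans, were compared region by region and gene by gene. The members are 1346 HPL-1 peaks and 1665 HPL-2 peaks, 3011 of the 4583 peaks in the 3 deposited lists, taken by chromosome, start and end. A peak was counted as shared when it overlapped a peak of the other paralogue by at least 1 bp. By gene bodies they covered 1860 of 19971 protein-coding genes.

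Binding had been measured by DamID-seq, in which a protein is fused to the bacterial adenine methyltransferase Dam and marks GATC sites near the places it visits. L4 larvae of strain MRS579 carried HPL-1::Dam in the intestine, L4 larvae of strain MRS580 carried HPL-2::Dam in the intestine, and L4 larvae of strain BN1051 carried GFP::Dam in the intestine as the control for both. Each group had 2 libraries from 1 strain, and synchronised animals were grown for 48 h at 20 °C. Genomic DNA came from whole larvae, 200 ng per library, so the tissue rests on where the transgene was expressed, and the promoter is not given in the sources used here. Each list is the authors' peak call at a false discovery rate (FDR) threshold of 0.05 on a profile averaged over replicates and taken relative to GFP-Dam. There was therefore 1 value per region and no replicate spread, and no difference below was tested. The depth of each library is unknown. Intervals in parentheses are exact 95% binomial intervals and cover counting error only. Neighbouring peaks can be parts of 1 bound domain, so they are not independent. Another list, HPL-2::Dam in the hypodermis of strain MRS578, serves as a comparison in a few places.

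Heterochromatin protein 1 family members recognise histone H3 methylated at lysine 9 through a chromodomain and form dimers through a chromoshadow domain. In C. elegans this mark is dense on the distal arms of the autosomes, where repeats and young gene families lie, and sparser in the gene-rich centres that hold many conserved genes. HPL-2 is known as a synMuv B protein whose loss affects vulval cell fate, fertility and the silencing of germline genes in the soma, while loss of HPL-1 alone has milder effects. The intestine is the animal's gut, fat store and yolk-producing organ.

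Most sites had a called peak of only 1 of the paralogues. HPL-1 had 971 peaks clear of any HPL-2 peak and 375 that overlapped one. HPL-2 had 1298 peaks clear of any HPL-1 peak and 367 that overlapped one. The 375 and 367 peaks formed 384 overlapping pairs, since a wide peak can meet several narrow ones. In 79 pairs the paralogues had identical start and end, 153 pairs shared the start and 148 shared the end. In 141 other pairs the HPL-1 peak lay inside the HPL-2 peak, in 70 the HPL-2 peak lay inside the HPL-1 peak, and 94 pairs were staggered. The median overlap was 539.5 bp, and 339 pairs overlapped by at least 50% of the shorter peak. Just inside the rule, 26 pairs overlapped by under 50 bp, the smallest by 1 bp. Just outside it, 12 HPL-1-only peaks and 10 HPL-2-only peaks ended within 100 bp of the other list, with smallest gaps of 28 bp and 39 bp. Within 1 kb of the other list were 71 of the HPL-1-only peaks and 90 of the HPL-2-only peaks, so most unshared sites were not near misses by distance. Signal that fell short of the peak call was not examined. A site or gene with 1 paralogue only therefore lacks a called peak of the other, which is not the same as absence of binding.

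The paralogues separated by position along the chromosomes. Each chromosome was cut into 3 parts of equal length, and a peak was placed by its midpoint. Of the HPL-1-only peaks, 322 of 971 lay in the middle part, or 33.16% (30.2 to 36.22), which is close to an even spread by length. Of the HPL-2-only peaks, 171 of 1298 lay there, or 13.17% (11.38 to 15.14). Of the shared HPL-1 peaks only 26 of 375 did, or 6.93% (4.58 to 9.99). HPL-1-only peaks were thus spread along the whole chromosome, while HPL-2-only peaks and the shared sites were concentrated towards the ends. The near-even spread depends on the class, which leaves out the mostly outer HPL-1 peaks that met HPL-2. Over the whole lists, the middle part held 25.85% of HPL-1 peaks (23.53 to 28.28) and 11.65% of HPL-2 peaks (10.15 to 13.29). Both lists as a whole were thus sparser there than an even spread, HPL-2 more so. Read the other way, 26 of 348 HPL-1 peaks in the middle part met an HPL-2 peak (7.47%, 4.94 to 10.76), against 349 of 998 in the outer parts (34.97%, 32.01 to 38.02). For HPL-2 the shares were 11.86% of 194 middle peaks and 23.39% of 1471 outer peaks. The median distance from an HPL-1-only peak to the nearest HPL-2 peak was 66.36 kb in the middle part and 14.72 kb in the outer parts. HPL-2 peaks covered 129.8 kb in the middle part and 1227.6 kb in the outer parts, so a middle HPL-1 peak had fewer to meet. Whether overlap or distance differed beyond this density was not tested.

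**Figure D1:**
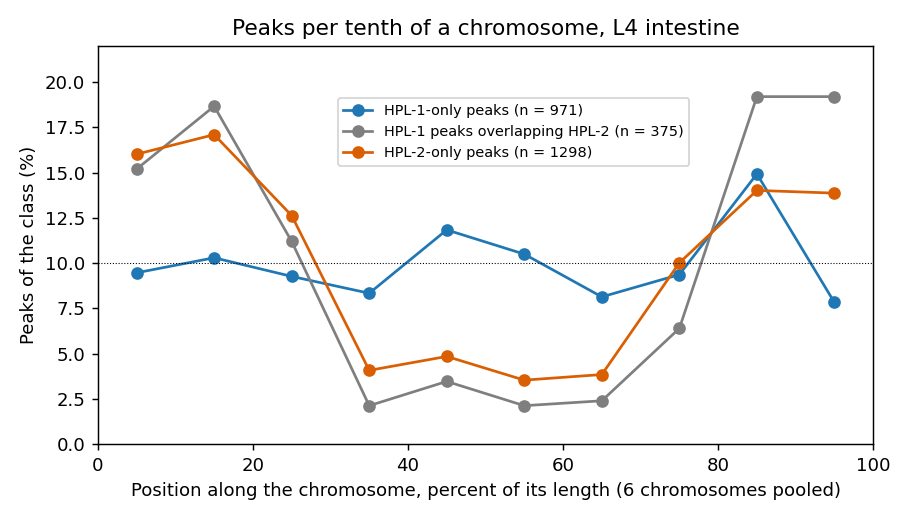
Share of each peak class (%) in each step of 10% of chromosome length, with the 6 chromosomes pooled; blue points are HPL-1-only peaks, grey points HPL-1 peaks that overlap HPL-2, and orange points HPL-2-only peaks, and the dotted line is an even spread. HPL-1-only peaks stay between 7.83% and 14.93% in every step, while HPL-2-only peaks fall to 3.54% and shared peaks to 2.13% near the centre.

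The contrast held on each of the 6 chromosomes but differed in size. The middle part held between 29.14% of HPL-1-only peaks on chromosome V and 46.4% on chromosome IV. For HPL-2-only peaks it held between 8.68% on chromosome II and 21.69% on chromosome X. Chromosome X came nearest to equal values, with 29.17% of HPL-1-only and 21.69% of HPL-2-only peaks in its middle, and the intervals there overlapped (21.23 to 38.16 and 15.68 to 28.74). Shared sites were nearly absent from the middle of chromosome I, with 1 of 75 shared HPL-1 peaks, and chromosome X had 9 of 40.

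**Figure D2:**
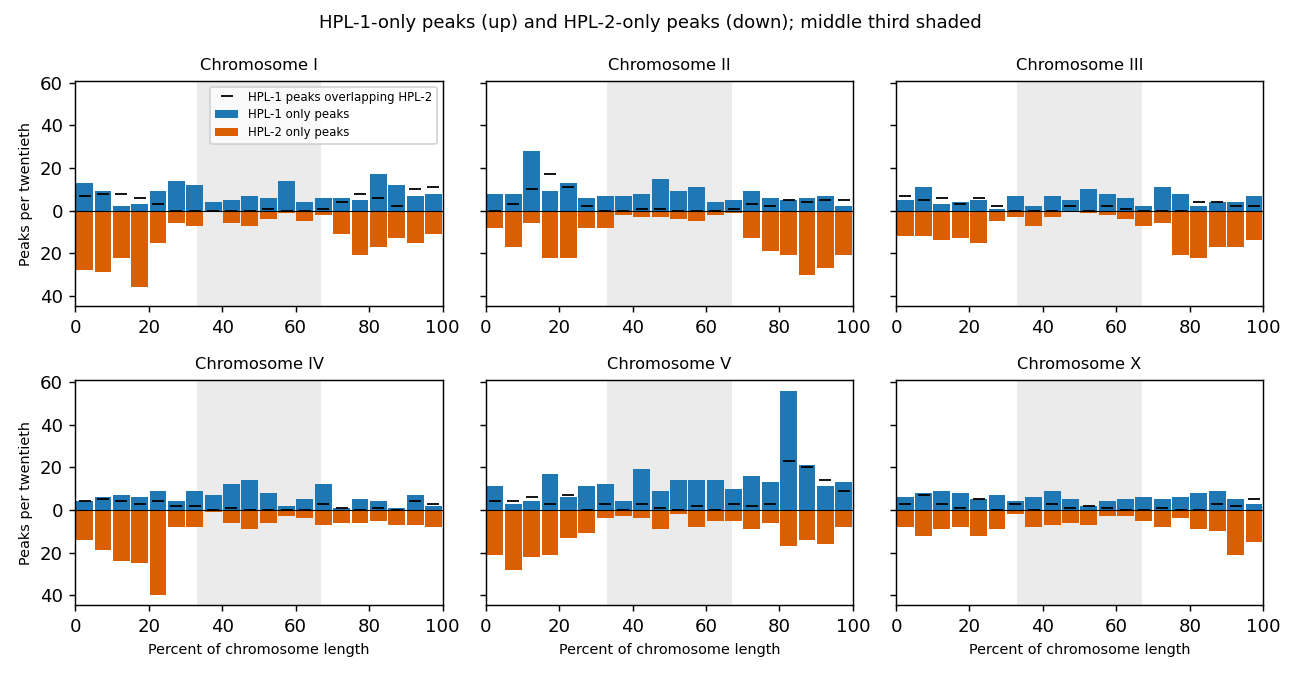
Peaks in equal steps along each chromosome, with position in percent of its length: HPL-1-only peaks rise above the line, HPL-2-only peaks hang below it, dashes give HPL-1 peaks that overlap HPL-2, and the shaded band is the middle part. HPL-2-only bars are long on the left of chromosomes I, IV and V and on the right of chromosomes I, II and III, and the tallest HPL-1-only bar stands on the right arm of chromosome V.

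In steps of 1 Mb, 26 of 33 middle windows held more HPL-1-only than HPL-2-only peaks, and 6 held fewer. In the outer parts the order was reversed, with 14 of 70 windows holding more HPL-1-only peaks and 54 holding fewer. The widest gap was on chromosome I at 2 to 3 Mb, with 4 HPL-1-only and 39 HPL-2-only peaks, and its 32 HPL-2-only genes include spe-47, dnj-28 and pop-1. Chromosome II at 13 to 14 Mb held 7 and 41 peaks of these classes, and chromosome III at 11 to 12 Mb held 4 and 33. Chromosome IV at 3 to 4 Mb held 9 HPL-1-only and 35 HPL-2-only peaks, among them those over the cholinergic locus. There unc-17, the vesicular acetylcholine transporter, and cha-1, choline acetyltransferase, share 1 stretch of DNA and a peak with the authors' score 1.37. The opposite order on an arm was clearest on the right of chromosome V. At 17 to 18 Mb it had 45 HPL-1-only, 20 shared and 19 HPL-2-only peaks, and at 16 to 17 Mb it had 24 HPL-1-only and 7 HPL-2-only peaks. These windows hold F-box, C-type lectin and chemoreceptor genes. In the middle, chromosome I at 8 to 9 Mb had 15 HPL-1-only peaks, over fasn-1 and tin-13 among others, and 2 HPL-2-only peaks.

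Counted by gene, 639 protein-coding genes (3.2%) carried HPL-1 only, 327 (1.64%) carried both and 894 (4.48%) carried HPL-2 only. In all, HPL-1 lay over 4.84% of protein-coding genes and HPL-2 over 6.11%. These shares are the background for every gene group below, and a group near them is no result about that group. Of the 327 genes with both, 261 had overlapping peaks and 66 had the paralogues on separate stretches of the same gene. In 10 HPL-1-only and 15 HPL-2-only genes, a peak over the gene met the other paralogue's peak outside the gene body. Genes with 1 paralogue only thus include a few at shared sites. Bound genes were long, which matters because a longer body meets more peaks. The median body was 2900 bp with HPL-1 only, 4310 bp with both and 3493 bp with HPL-2 only, against 1936 bp for genes with neither. A gene carried 2 or more HPL-1 peaks in 29 of 639 HPL-1-only genes, while 118 of 894 HPL-2-only genes carried 2 or more HPL-2 peaks. Runs of at least 3 neighbouring genes numbered 3 with 9 HPL-1-only genes and 22 with 74 HPL-2-only genes. Such counts follow the density of bound genes, and some runs lie under 1 peak. The longest HPL-2-only run, 6 genes on chromosome I from 1041472 to 1074343 (WBcel235), ends with npr-23 and gsa-1.

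Genes followed the same geography as peaks. HPL-1 alone marked 3.38% of 7544 genes in the middle parts (2.98 to 3.81) and 3.09% of 12427 in the outer parts (2.79 to 3.41), so its pooled share was nearly the same in both. By chromosome the middle share was higher on IV (3.08% against 1.79% of outer genes) and on III (3.1% against 2.09%). HPL-2 alone marked 1.58% of middle genes (1.31 to 1.88) and 6.24% of outer genes (5.82 to 6.68). Both together marked 0.27% of middle genes and 2.47% of outer genes. On the X middle the paralogues had equal counts, 30 genes each.

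The highest scores among named HPL-1-only genes were 1.53 for clec-238, 1.35 for sma-1 and 1.34 for rskn-1. Their peaks lay over 4.8%, 1.5% and 9.6% of the gene bodies. Other HPL-1-only genes of the upper ranks by score or by covered bases follow. fasn-1, the fatty acid synthase gene, at chromosome I 8975366 to 8986540, carried 3 HPL-1 peaks over 44.3% of its body, the most bases of the named HPL-1-only genes, with a top score of 1.19. lrp-1, a megalin-like lipoprotein receptor of the epidermis needed for molting, also carried 3 peaks, over 11.5% of its body. unc-68, the ryanodine receptor that releases calcium from internal stores, carried 2 HPL-1 peaks over 3.6% of a 27358 bp body, outside the middle part. nhr-31, a nuclear hormone receptor, egl-44, a TEAD-type transcription factor, and srgp-1, a GTPase-activating protein, had scores of 0.96, 0.97 and 1.12. tin-13, a small mitochondrial import factor, was covered over 97.6% of its body. Scores are the authors' own on a scale they do not state, so they order peaks only within 1 list.

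The cuticle collagens, short structural genes of the epidermis, had the highest share with HPL-2 only among the 29 gene lists. Of 176 genes, 72 carried HPL-2 only (40.91%), 8 carried both and 7 carried HPL-1 only. HPL-2 lay over a median of 56.8% of the bound collagen bodies, against 17.8% over all genes with an HPL-2 peak. The median body in the family is 1220 bp and the median HPL-2 peak 678 bp. A single peak of usual width can thus cover much of a collagen gene, so this depth is no separate trait of the family. dpy-13, a collagen that sets body length, at chromosome IV, was covered completely with a score of 1.49. sqt-1 and sqt-3, collagens that shape the body, were covered over 72.0% and 72.8%, bli-1, a collagen of the adult cuticle struts, over 18.5% and dpy-17 over 54.5%. The HPL-2-only collagens were found on every chromosome, from 3 of 23 on chromosome I to 7 of 13 on chromosome III. Of the 83 collagens in the outer parts 47 carried HPL-2 only (56.63%), and of the 93 in the middle parts 25 did (26.88%), against 6.24% and 1.58% of all genes there. The family thus also had the higher share towards the chromosome ends. The 7 HPL-1-only collagens, 5 of them in the middle parts, were col-79, col-94, col-113, col-3, col-144, col-153 and col-168. The 8 with both were col-48, col-80, col-87, col-91, col-99, col-102, col-103 and col-142, and in all 8 the peaks overlapped. Members were taken by gene name, and whether col-99, with a 9946 bp body, is a cuticle collagen was not checked. col-80 was covered completely by each paralogue. On chromosome II, col-17, col-20 and col-73 lay in 1 run of HPL-2-only genes.

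Genes that process collagen or act in molting did not follow the collagens. Of 35, 5 carried HPL-1 only, 2 carried both and 4 carried HPL-2 only. Under HPL-1 only were bli-3, the dual oxidase that crosslinks cuticle, fbn-1, a fibrillin-like protein, nas-37, a molting protease, let-653 and lrp-1. Under HPL-2 only were bli-4, a proprotein convertase, mlt-10, and dpy-18 and phy-4, prolyl 4-hydroxylase subunits, with phy-4 covered over 99.5%. mlt-11, a protease inhibitor-type molting gene, and phy-3 carried both. Among 17 epidermal transcription factors none carried HPL-1 only. nhr-23 and nhr-25, nuclear receptors of the molting cycle, and lin-42, the period-like timing gene, carried HPL-2 only, and elt-3, a GATA factor, egl-18 and peb-1 carried both.

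Proteins that anchor the epidermis to muscle and cuticle made a small group, listed only after their values had been seen. Of 9, 3 carried HPL-1 only, namely ifb-1, an intermediate filament, and mup-4 and mua-3, transmembrane attachment proteins. mup-4, at chromosome III 7479680 to 7489105, had 2 HPL-1 peaks over 38.8% of its body. vab-10, the spectraplakin, pat-12 and let-805 carried both, and vab-19 carried HPL-2 only. Basement membrane genes, listed in the same way, had none with HPL-1 only of 18. emb-9 and let-2, both chains of type IV collagen, carried HPL-2 only over 37.6% and 39.3% of their bodies, and unc-52, the perlecan gene, and mig-6 carried both.

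Muscle genes were often marked by HPL-2, alone or with HPL-1. Of 58, 3 carried HPL-1 only, 10 carried both (17.24%) and 13 carried HPL-2 only (22.41%). Many are long genes, with a median body of 4645.5 bp, and a longer body meets more peaks. unc-54, the main body wall myosin heavy chain, at chromosome I 14855901 to 14863482, had 4 HPL-1 and 3 HPL-2 peaks, over 71.7% and 71.4% of its body. ketn-1, the kettin gene, showed the paralogues unequal on 1 gene, with 3 HPL-1 peaks over 10.3% and 10 HPL-2 peaks over 61.4%. unc-22, the twitchin gene, had 5 HPL-1 and 3 HPL-2 peaks, over 8.2% and 3.4% of its body. hlh-1, the MyoD-type factor, ttn-1, a titin, unc-89 and tni-3 also carried both. In ttn-1 each paralogue covered 1.0% of an 81724 bp body, and in unc-89 they covered 0.9% and 1.8% of 55184 bp. In neither gene did the peaks overlap. The tni-3 gene lies within phy-3, named above, and both genes were counted from the same peaks. Under HPL-2 only were unc-15, paramyosin, with 41.1% covered, the myosins myo-1, myo-2 and myo-3, and the troponin T genes tnt-2, tnt-3, tnt-4 and mup-2, the last with 85.1% covered. unc-68, lev-10 and myo-5 were the 3 with HPL-1 only. tln-1, talin, which is not on that list, had 4 HPL-2 peaks over 34.8%. The hypodermal HPL-2 list held 23 of the 58 muscle genes, against 5.92% of all protein-coding genes. It held 8 of the 10 with both and 8 of the 13 with HPL-2 only, where the shares over all genes of these classes were 54.43% and 28.75%.

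**Figure D3:**
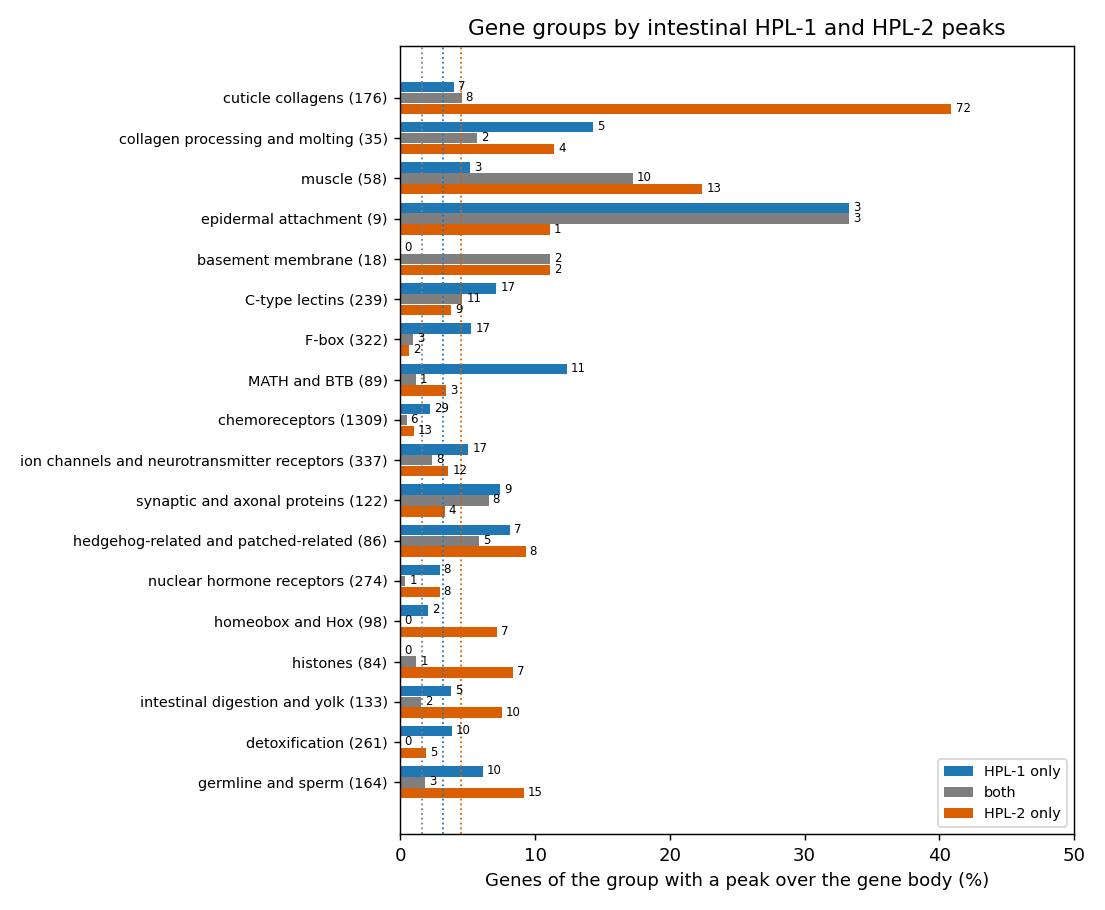
Share of each gene group (%) whose bodies carried HPL-1 only (blue), both (grey) or HPL-2 only (orange); numbers beside bars are genes, numbers in parentheses are the group sizes, and dotted lines mark the shares over all protein-coding genes (3.2%, 1.64% and 4.48%). Cuticle collagens stand out for HPL-2 only at 40.91%, and MATH and BTB genes carried HPL-1 only at 12.36%; the long attachment bars stand for 3 of 9 genes each.

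MATH and BTB domain genes, which adapt substrates to cullin ubiquitin ligases, had 11 of 89 with HPL-1 only (12.36%), 1 with both and 3 with HPL-2 only, all on chromosome II, which holds 76 of the 89. btb-11 was covered over 78.4% by HPL-1, and math-38 over 69.1% by HPL-2. F-box genes, substrate receptors of other cullin ubiquitin ligases, had 17 of 322 with HPL-1 only (5.28%), 3 with both and 2 with HPL-2 only. Of the 17, 8 were on chromosome V and 7 on chromosome II, which together hold 194 of the 322, and none lay in a middle part, where only 8 F-box genes lie. fbxa-185 and fbxb-7, which start at 17331640 and 17377406 on chromosome V, had the highest scores of the 17, 1.23 and 1.16. fbxa-59 and fbxa-218, both on chromosome III, were the pair with HPL-2 only.

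C-type lectins, sugar-binding proteins many of which are induced by infection, were split among the classes. Of 239, 17 carried HPL-1 only (7.11%), 11 carried both and 9 carried HPL-2 only, and none of these lay in a middle part, which holds 38 of the family. Of the HPL-1-only lectins, 12 were on chromosome V, where clec-27, clec-31 and clec-22 stood next to each other between 16854633 and 16860040 with 3 HPL-1 peaks and no HPL-2 peak. clec-95 on chromosome I was covered completely by HPL-1, and clec-92 on the same chromosome over 94.6% by HPL-2. clec-148 carried both over 96.6% of its body. clec-250, on the right arm of chromosome V, had overlapping peaks that the authors scored 1.63 in the HPL-1 list and 2.36 in the HPL-2 list. Chemoreceptors, the largest family, had 29 of 1309 with HPL-1 only (2.22%), 6 with both and 13 with HPL-2 only, so each share lay below the background. HPL-1 was alone on 23 of the 888 chemoreceptors of chromosome V, HPL-2 on 9. Over all 4995 protein-coding genes of that chromosome the counts were 190 and 153, so both chemoreceptor shares were the lower ones there too.

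Among 131 other antimicrobial and pathogen-response genes, 4 carried HPL-1 only (3.05%, near the background) and none carried HPL-2. They were pals-13, pals-40, nlp-31, an antimicrobial-type neuropeptide-like gene, and abf-4, an antibacterial factor-related gene, and nlp-31 and abf-4 were covered completely. Of 49 signalling genes of immunity and stress, none carried HPL-1 only, 4 carried both and 4 carried HPL-2 only (8.16%), in genes with a median body of 4413 bp. daf-16, the FOXO factor of insulin signalling, carried both on separate stretches, HPL-1 at chromosome I 10754329 to 10754759 and HPL-2 at 10756341 to 10757444. daf-2, the insulin receptor that acts upstream of it, carried 4 HPL-2 peaks and no HPL-1 peak. atfs-1, which drives the mitochondrial stress response, was covered over 68.2% by HPL-1 and 9.0% by HPL-2. skn-1, an Nrf-type factor, kgb-1, a stress kinase, and tir-1, the SARM orthologue, carried HPL-2 only, and hlh-30, the TFEB orthologue, and mek-2 carried both. The collagen gene col-48 lies within mek-2, and the HPL-1 peak and top HPL-2 peak of mek-2 are those counted for col-48.

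Of 133 genes of digestion, lipid handling and yolk, 5 carried HPL-1 only (3.76%, against 3.2% of all genes), 2 carried both and 10 carried HPL-2 only (7.52%, against 4.48%). Yolk protein genes were split. vit-1, vit-2 and vit-6 carried HPL-2 only, with vit-2 under 4 peaks over 61.3% of its body, while vit-3 carried HPL-1 only at a score of 0.37, the lowest in that list. act-5, the microvillar actin, acs-2, an acyl-CoA synthetase of fat breakdown, and fat-5, a fatty acid desaturase, carried HPL-2 only. The neighbouring genes far-1 and far-2, for fatty acid and retinol binding proteins and not on that list, lay under 1 HPL-2 peak at chromosome III 9080263 to 9083203 that covered both completely. Detoxification genes had 10 of 261 with HPL-1 only, among them the transporter mrp-2 and the cytochrome P450 gene cyp-35B3, none with both and 5 with HPL-2 only.

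Of 337 ion channels and neurotransmitter receptors, 17 carried HPL-1 only (5.04%), 8 carried both and 12 carried HPL-2 only. In the middle parts, which hold 157 of them, the counts were 8 (5.1%, against 3.38% of all middle genes), 1 and 1, and in the outer parts 9, 7 and 11. These are long genes, with a median body of 4511 bp. egl-19, the L-type calcium channel, dop-3, a dopamine receptor, and mod-1, a serotonin-gated channel, were among the HPL-1-only genes, and unc-2, a presynaptic calcium channel, and unc-7, an innexin, among those with HPL-2 only. Of 122 synaptic and axonal genes, 9 carried HPL-1 only, such as acy-1, an adenylyl cyclase, and unc-6, netrin, 8 carried both and 4 carried HPL-2 only. unc-44, a giant ankyrin, had 6 HPL-1 peaks and 2 HPL-2 peaks that did not overlap. jph-1, junctophilin, had the same peak edges in both lists, chromosome I 7947961 to 7948690. Neuropeptide and insulin genes had 4 of 149 under HPL-1 only (2.68%, near the background), none with both and 2 under HPL-2 only (1.34%). These are short genes, with a median body of 903 bp.

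Among transcription and chromatin genes, 8 of 274 nuclear hormone receptors carried HPL-1 only, 1 carried both and 8 carried HPL-2 only. Homeobox genes had 2 of 98 with HPL-1 only, none with both and 7 with HPL-2 only, including unc-62, a Meis-type factor that regulates yolk genes. Histone genes had none of 84 with HPL-1 only, 1 with both, the linker histone gene hil-4, and 7 with HPL-2 only, among them his-72, a variant H3, and his-24, a linker histone. Histone genes lie in near-identical copies, so reads from one copy cannot always be assigned. Of 75 genes for H3K9 methylation and synMuv chromatin proteins, 3 carried a peak. The hpl-2 gene itself, at chromosome III 10752195 to 10755530, lay under an HPL-1 peak over 56.3% of its body, with a score of 0.62 and no HPL-2 peak. nrde-4, of nuclear RNA interference, carried HPL-1 only, and jmjd-2, an H3K9 and H3K36 demethylase, carried HPL-2 only. Of small RNA genes, dcr-1, the Dicer gene, wago-1 and rrf-2 carried HPL-1 only, alg-2 and ergo-1 carried HPL-2 only, and eri-6 and wago-10 carried both, of 53 in all.

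Germline and sperm genes had 10 of 164 with HPL-1 only (6.1%), 3 with both and 15 with HPL-2 only (9.15%). With HPL-1 only were meg-3 and meg-4, germ granule proteins, spe-11, gld-2, daz-1 and rec-8. With HPL-2 only were mex-1, mex-3, glh-2, a germ granule helicase, rme-2, the oocyte yolk receptor, and the sperm genes spe-9, gsp-3 and msp-3. The major sperm protein genes are near-identical copies, so msp-3, msp-63 and msp-142 are uncertain. Hedgehog-related and patched-related genes had 7 of 86 with HPL-1 only, such as wrt-1 and qua-1, 5 with both, such as ptc-3, and 8 with HPL-2 only, such as ptc-1. In the lido family, clustered on the left of chromosome II, 5 of 17 carried both and 3 carried HPL-2 only. Heat shock and chaperone genes had none of 62 with HPL-1 only, 1 with both and 3 with HPL-2 only. Ribosomal protein genes had 1 of 64 with HPL-1 only, none with both and 2 with HPL-2 only.

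Within each list, shared sites had the higher authors' scores. The median score of HPL-1 peaks was 0.72 at shared sites and 0.65 at HPL-1-only sites, and 69.6% against 47.58% had an FDR of 0.01 or below. The median score of HPL-2 peaks was 1.15 at shared sites and 0.91 at HPL-2-only sites, and 82.56% against 60.09% had an FDR of 0.01 or below. HPL-1-only peaks had a median score of 0.64 in the middle and 0.66 in the outer parts, and 44.1% and 49.31% of them had an FDR of 0.01 or below, the lowest shares among the HPL-1 classes. The middle HPL-1-only peaks were also the narrowest of that list, with a median of 582.5 bp. Over the 384 pairs the scores rose together only loosely, with a Spearman rho of 0.288, given as a description of pairs that share the GFP-Dam control and the GATC fragments. Only 29 pairs were in the top 10% of both lists.

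**Figure D4:**
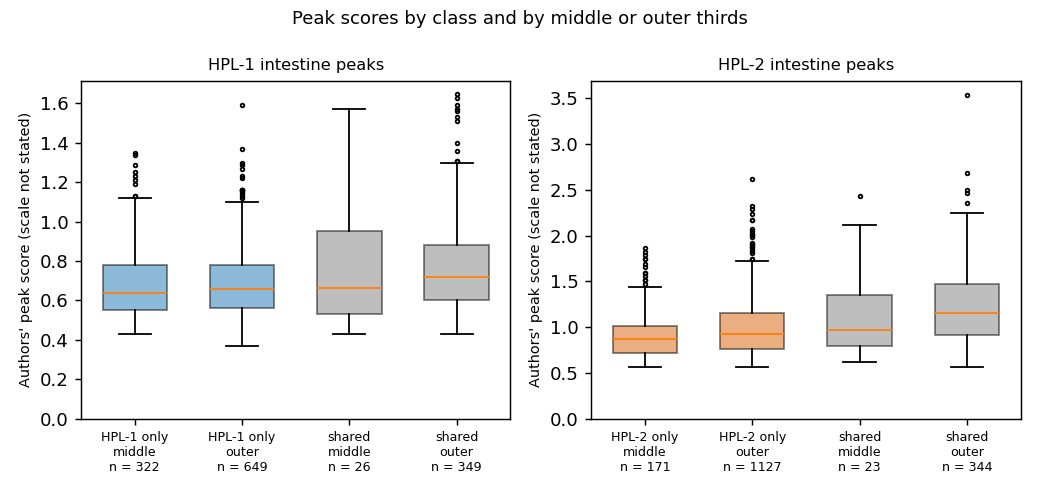
Authors' peak scores (scale not stated) by class and by middle or outer parts of the chromosomes, HPL-1 list left and HPL-2 list right; boxes span the quartiles with the median as a line, whiskers follow the usual Tukey rule, and circles are peaks beyond them. Shared peaks in the outer parts have medians of 0.72 and 1.155 in the separate lists, above the other boxes of their panel.

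Shared sites were also the ones most often occupied by HPL-2 in the hypodermis. Of the 375 shared HPL-1 peaks, 46.67% overlapped a hypodermal HPL-2 peak, against 19.88% of HPL-1-only peaks and 23.34% of HPL-2-only peaks. In the middle parts the shares were 6.83% of HPL-1-only peaks (4.33 to 10.16) and 13.45% of HPL-2-only peaks (8.72 to 19.5), and in the outer parts 26.35% and 24.84%. Of genes, 20.03% with HPL-1 only, 54.43% with both and 28.75% with HPL-2 only carried a hypodermal peak, against 3.42% of genes with neither. The hypodermal list has its own GFP-Dam control, whereas the intestinal lists share one, whose part in their overlap was not tested.

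**Figure D5:**
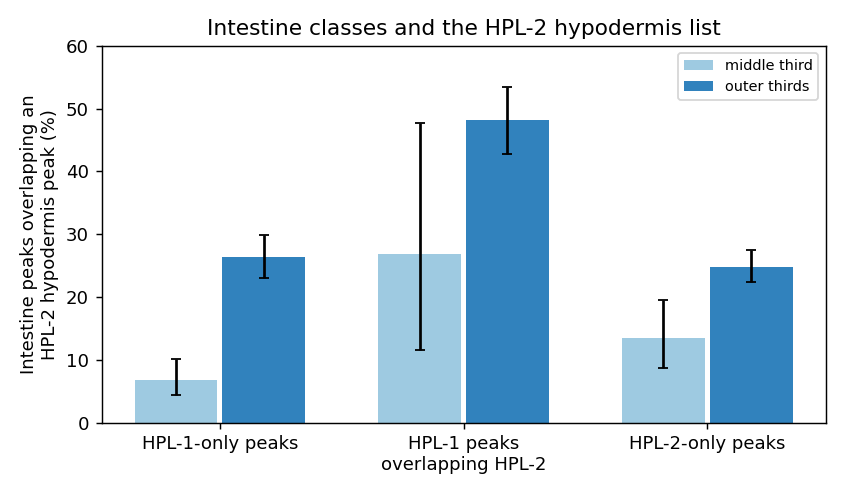
Share (%) of intestinal peaks of each class that overlap a hypodermal HPL-2 peak, in the middle (light) and outer (dark) parts of the chromosomes; error bars are exact 95% binomial intervals. The middle HPL-1-only bar is the lowest at 6.83%, and the outer shared bar the highest at 48.14%.

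The tissue label could not be checked by expression, since the files hold binding only. Of genes that mark cell types, 1 of 16 intestinal markers carried HPL-1 only, none carried both and 4 carried HPL-2 only. For hypodermal markers the counts were 1, 1 and 5 of 12, for body wall muscle 0, 5 and 3 of 8, for germline 0, 1 and 1 of 6, and none of 8 neuronal markers carried a peak. The muscle markers include the very long genes ttn-1, unc-89 and unc-22, and a longer body meets more peaks. Whether either fusion acted outside the intestine was not tested.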

How the data were processed

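The series holds 10 DamID-seq libraries in 5 groups of 2, grouped by their titles. Reads were handled with Bowtie2 2.3.4, SAMtools 1.9 and R 3.4.3 on WBcel235/ce11, per the submitters' processing notes; the peak caller is not given in the sources used here. Each deposited list gives, per peak, the authors' score (scale not stated), an FDR that reached 0.0367 (HPL-1) and 0.0362 (HPL-2) and, as other values, its coordinates; per the file names, profiles were averaged before calling. Whether replicates were separate cultures is not stated. The GFP-Dam signal was not analysed here.

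Overlaps were computed in Python 3.11.15 with pandas 2.3.3, NumPy 2.4.6 and SciPy 1.17.1, and the code was tested on simulated intervals. Genes with 1 bp or more of their body under a peak counted as bound, in a RefSeq WBcel235 table of 46926 genes without strand or exons. Chromosome extent is the furthest gene or peak end. No test was run. Genes were named by score, bases covered, share covered, list membership, runs and extreme windows; the members and all 29 gene lists were chosen with earlier results of these data known. Patterns of several lists were corrected, and the attachment and basement membrane lists added, after values were seen; lrp-1 was then taken off the attachment list. Genes named beyond the rule, such as far-1 and tln-1, were chosen after their values were seen.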

Additional observations from a re-analysis of the deposited data

How the results depend on the processing

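Of 72 values recomputed for 13 results under 6 planned and 3 added alternatives, 55 stayed within counting error or within 1.5 times. The other 17 moved. Where a move does not follow from the setting itself, its cause was not tested. The added alternatives, chosen after seeing the data (covered bases in place of peaks, without chromosome V, without chromosome X), moved none. The overlapping share was 27.86% of HPL-1 and 22.04% of HPL-2 peaks. With an FDR of 0.01 or below it was 31.81% of HPL-1 peaks, HPL-1-only genes were 347, genes with both 203, and HPL-1-only F-box and chemoreceptor genes 11 and 17. The middle part then held 29.61% of HPL-1-only and 11.31% of HPL-2-only peaks. With an overlap of 50% of the shorter peak the shares were 25.04% and 19.88%; within 1 kb they were 33.14% and 27.45%, and HPL-1-only chemoreceptor and C-type lectin genes with 1 kb flanks were 57 and 28. With lists of equal size the HPL-2 share was 24.74%. The middle 50% of each chromosome held 48.2% of HPL-1-only, 14.67% of shared and 24.04% of HPL-2-only peaks. It contains the middle part used above, so these shares could not come out lower. With 1 kb flanks, HPL-2-only chemoreceptors were 33 and F-box genes 13. No paired analysis was possible because the deposited lists average the replicates and no column carries a replicate number; leaving out a replicate was not possible for the same reason.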

Other observations

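Gene classes other than protein-coding genes were also covered, some of them within protein-coding bodies. Of 1921 pseudogenes, 90 carried HPL-1 only (4.69%), 31 carried both (1.61%) and 46 carried HPL-2 only (2.39%). A pseudogene lay under 10.3% of HPL-1-only peaks (8.46 to 12.38) and 4.39% of HPL-2-only peaks (3.34 to 5.65). Without a protein-coding body under the peak these shares were 7.83% and 3.93%. Many of the HPL-1-only pseudogenes lay on chromosome V, a good part of them between 16 and 18 Mb, where HPL-1-only peaks were dense. The shares outside that region were not computed. No protein-coding body lay under 25.33% of HPL-1-only peaks, 24.0% of shared HPL-1 peaks and 16.26% of HPL-2-only peaks. Of 612 tRNA genes, 1 carried HPL-1 only (0.163%), none carried both and 10 carried HPL-2 only (1.63%). Of 260 microRNA genes, 1 carried HPL-1 only (0.385%), 1 carried both and 6 carried HPL-2 only (2.31%). Of 15363 piRNA genes, 16 carried HPL-1 only (0.104%), 1 carried both and 12 carried HPL-2 only (0.0781%). In these 3 kinds of gene every share lay below that of protein-coding genes (3.2%, 1.64% and 4.48%). Whether reads over tRNA genes could be assigned to 1 copy was not checked.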
